A study of Mus musculus with 12 samples.

Results

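The transcripts described here are 9 genes that mark stem-like and memory CD8+ T cells, namely Tcf7, Lef1, Bach2, Id3, Klf2, Satb1, Ccr7, Cxcr5 and Slamf6, taken by name from a count table of 52636 gene identifiers. All 9 were detected in each library and passed the filter on low counts, which left 14173 genes. They were followed in tumor-infiltrating CD8+ T cells that did (GFP+) or did not (GFP−) carry the reporter for the adenosine receptor A2AR, to ask whether A2AR+ cells hold more of the stem-like program, with and without blockade of the checkpoint ligand PD-L1. Female A2AR eGFP reporter mice aged 6 to 16 weeks were inoculated with 500000 AT3ova cells, a mouse mammary carcinoma line that expresses ovalbumin, and were either left non-treated (NT) or given anti-PD-L1 on days 14 and 18. On day 21 the CD8+ GFP+ and CD8+ GFP− cells of the tumor were sorted and sequenced from the 3′ end of their transcripts, with 3 libraries in each of 4 groups and 3 mice pooled in each library. Mice of all 4 groups carried the same bacterial artificial chromosome transgene, in which EGFP is placed at the start codon of Adora2a on a C57BL/6 background, so that GFP reports activity of the Adora2a promoter in the transgene and not A2AR protein itself.

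Stem-like CD8+ T cells are the part of the tumor-reactive pool that keeps the ability to divide and to give rise to effector and terminally exhausted progeny. TCF-1, the product of Tcf7, and its relative LEF-1 bind DNA through an HMG domain and maintain the naive, memory and stem-like states. BACH2 restrains effector genes, ID3 holds E proteins away from DNA, KLF2 drives the genes that let T cells leave tissue and recirculate, and SATB1 organises chromatin in T cells. CCR7 and CXCR5 are chemokine receptors that guide cells to the T cell zone and the B cell follicle, and SLAMF6 (Ly108) is a surface receptor widely used to sort stem-like cells.

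In GRCm38 the 9 genes lie on 7 chromosomes, and each is protein coding. Tcf7 is at chr11:52252371-52283014 and Ccr7 at chr11:99144196-99155077, both on the minus strand. Bach2 is at chr4:32238804-32586108 and Id3 at chr4:136143497-136145755, both on the plus strand. Slamf6 is at chr1:171917515-171953170, Lef1 at chr3:131110471-131224356 and Klf2 at chr8:72319033-72321656, all on the plus strand. Cxcr5 is at chr9:44511787-44561877 and Satb1 at chr17:51736187-51833290, both on the minus strand. Exons of Lef1, Bach2, Cxcr5 and Satb1 share bases with a gene on the other strand (Gm43352, Bach2os, Bcl9l and Gm6934), and those of Satb1 also with Gm36931 on its own strand. The strand setting of the read counting is not given in the sources used here, so reads in those bases cannot be assigned to one partner with certainty.

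The promoters of Klf2 and Id3 are shown because these were the members with the largest differences after anti-PD-L1. RefSeq sequences of GRCm38.p6, each from 250 bases before to 50 bases after the transcript start, were at hand for 7 of the 9 members in 15 windows. Capitals mark TATAA, read on either strand, and a MEF2 consensus site.
Klf2, chr8:72318812-72319111, plus strand: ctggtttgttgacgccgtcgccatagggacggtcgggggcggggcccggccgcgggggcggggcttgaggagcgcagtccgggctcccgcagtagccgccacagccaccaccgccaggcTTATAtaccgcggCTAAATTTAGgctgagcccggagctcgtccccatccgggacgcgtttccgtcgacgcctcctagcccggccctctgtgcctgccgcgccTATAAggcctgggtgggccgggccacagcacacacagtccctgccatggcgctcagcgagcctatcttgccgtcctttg
Id3, chr4:136143572-136143871, plus strand: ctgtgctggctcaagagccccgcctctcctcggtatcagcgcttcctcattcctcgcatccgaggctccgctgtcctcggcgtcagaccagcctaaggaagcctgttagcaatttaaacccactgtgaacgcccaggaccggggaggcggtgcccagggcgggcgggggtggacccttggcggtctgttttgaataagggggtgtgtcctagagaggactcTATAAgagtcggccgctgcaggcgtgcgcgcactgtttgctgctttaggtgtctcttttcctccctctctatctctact
Both windows held TATAA starting 29 bases before the transcript start, a motif present in 24.9% of 32851 promoter windows of this length. In the Klf2 window, TATAA also matched on the opposite strand 131 bases before the start, and a match to the MEF2 consensus, a pattern that is its own reverse complement, began 118 bases before it. That consensus was found in 3.19% of all windows and, of the 7 members with a window, in Klf2 alone. Letters that the members' own families bind were searched on both strands too. Neither window held CTTTGAT for TCF/LEF (in 3.73% of all windows), and neither held CCACACCC for KLF (3.56%). The same was true of the E-box CAGGTG (20.2%) and of TGAGTCA for BACH/AP-1 (5.20%). The TATAA and MEF2 letters were searched after these windows had been seen. A match is a run of letters and was not tested as a binding site.

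The libraries held 11292699 to 19023900 counts. Among them, KT13 (GFP+ NT) and KT21 (GFP+ anti-PD-L1) stood apart: their median Spearman correlation with the other libraries over tested genes was 0.941 and 0.935, against 0.967 to 0.977 for the remaining 10, and the main results are therefore also given without them. Adora2a itself was at 60.2 to 111 CPM (counts scaled to a common library size with TMM factors) in the 6 GFP+ libraries and at 19.7 to 34.6 CPM in the 6 GFP− libraries, without overlap. The 6 CD8 T cell markers (Cd3d, Cd3e, Cd3g, Cd8a, Cd8b1 and Trac) were detected in each library and summed to 3022 to 5091 CPM, while Cd4 did not exceed 0.919 CPM. The CD8 sum was higher after anti-PD-L1 in each GFP group, without overlap. It was 3022 to 3726 CPM in NT and 3732 to 5091 CPM in treated GFP+ libraries, and 3657 to 3892 against 4199 to 4400 CPM in GFP−. The CD4 and regulatory T cell list (Cd4, Cd40lg, Foxp3 and Il2ra) summed to 55.3 to 92.3 CPM in GFP+ NT and 72.2 to 88.2 CPM in GFP− NT libraries, and after anti-PD-L1 to 52.4 to 65.8 against 72.4 to 116 CPM, without overlap. With Cd4 at no more than 0.919 CPM, these sums came almost wholly from the other genes of the list. Marker lists of other cells also moved with the groups. The NK list (Klra4, Klra8, Klrb1c, Ncr1) summed to 47.4 to 65.3 CPM in GFP+ and 17.0 to 38.5 CPM in GFP− libraries, mostly from Klrb1c. Of B cell genes, which bear on Bach2, Ccr7 and Cxcr5 since B cells express them, Ighm was at 89.7 to 168 CPM in GFP+ and 67.2 to 106 CPM in GFP− libraries, whereas Ms4a1 and Pax5 did not exceed 0.387 CPM. The macrophage list, all 8 of whose markers were detected, summed to 126 to 231 CPM in NT and 68.1 to 143 CPM in anti-PD-L1 libraries.

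Tcf7 did not separate GFP+ from GFP− libraries. It was at 37.3, 56.8 and 74.2 CPM in GFP+ NT libraries (KT13, KT15 and KT17) and at 56.8, 66.7 and 54.9 CPM in GFP− NT libraries (KT14, KT16 and KT18). After anti-PD-L1 it was at 64.1, 16.1 and 49.8 CPM in GFP+ (KT19, KT21 and KT23) and at 45.1, 46.0 and 37.0 CPM in GFP− libraries (KT20, KT22 and KT24). The lowest level of each treatment was thus in the GFP+ library that stood apart, and GFP+ and GFP− overlapped in both. The difference between GFP+ and GFP−, averaged over treatments, was −0.03 on the log2 scale (SE 0.26, 95% interval −0.59 to 0.52, adjusted p = 0.986 in edgeR's quasi-likelihood test). Without KT13 and KT21 it was 0.28 (SE 0.12, 95% interval 0.04 to 0.52, edgeR adjusted p = 0.384).

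**Figure D1:**
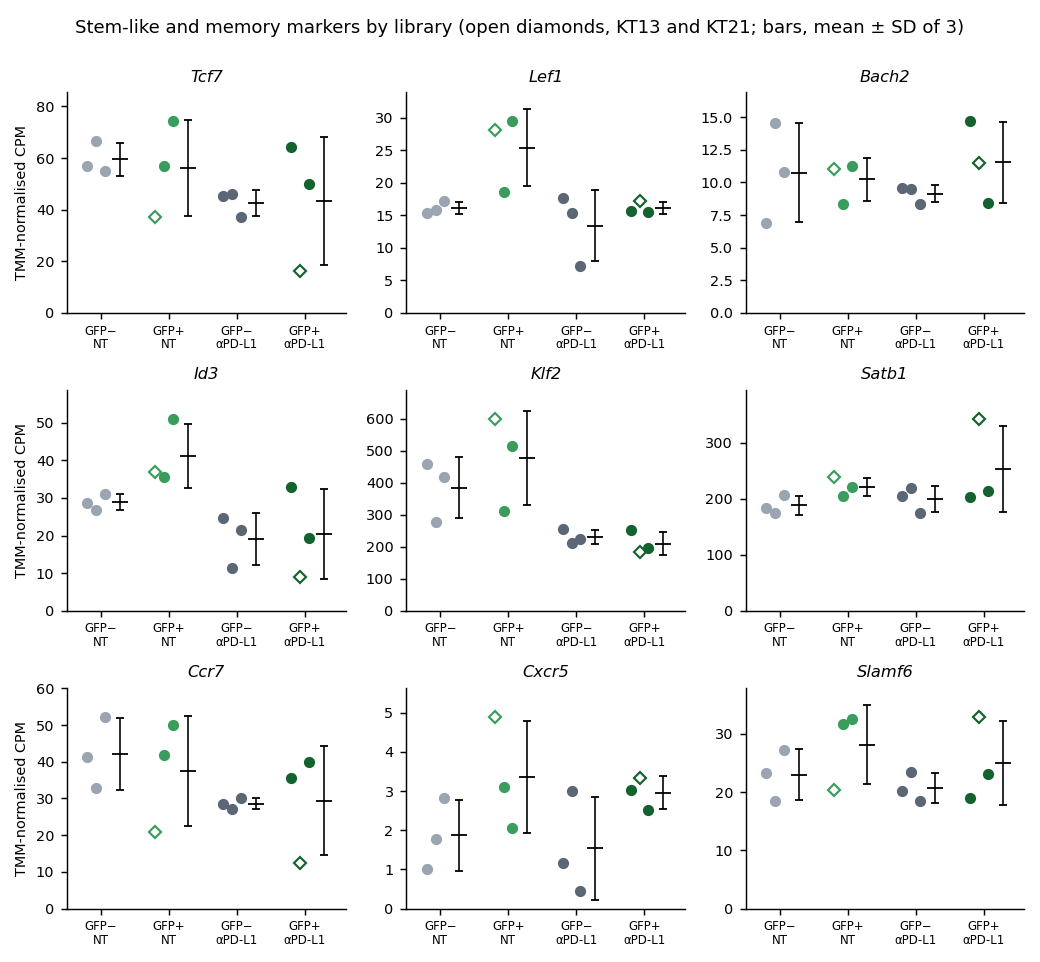
Level of each of the 9 markers in each library, as TMM-normalised CPM on a linear axis from 0, by GFP and treatment; filled circles are libraries, open diamonds are KT13 and KT21, and bars are the mean ± SD of 3 libraries. Klf2 and Id3 are lower after anti-PD-L1 in both GFP groups, whereas KT21 has the lowest Tcf7 (16.1 CPM) and Ccr7 (12.4 CPM) and the highest Satb1 (342 CPM).

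Lef1 was at 28.1, 18.6 and 29.5 CPM in GFP+ NT and at 15.4, 15.8 and 17.3 CPM in GFP− NT libraries. All 3 GFP+ libraries were above all 3 GFP− libraries before treatment. After anti-PD-L1 the levels were 15.7, 17.2 and 15.6 CPM in GFP+ and 17.6, 15.3 and 7.25 CPM in GFP−, which overlapped. The averaged GFP difference was 0.46 (SE 0.20) over 12 libraries, with an edgeR adjusted p of 0.576, and 0.40 (SE 0.19, edgeR adjusted p = 0.495) over 10.

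Id3, the antagonist of E proteins, had the same order before treatment. GFP+ NT libraries were at 36.9, 35.7 and 51.0 CPM and GFP− NT libraries at 28.7, 26.8 and 31.1 CPM, again without overlap. After anti-PD-L1 the 3 GFP+ libraries spread from 9.10 to 32.9 CPM, with KT21 lowest, and the 3 GFP− libraries from 11.3 to 24.6 CPM. The averaged GFP difference was 0.31 (SE 0.26, edgeR adjusted p = 0.793), and 0.52 (SE 0.18, 95% interval 0.15 to 0.89, edgeR adjusted p = 0.241) without KT13 and KT21.

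Bach2, Klf2 and Satb1 overlapped between GFP+ and GFP− in both treatments. Bach2 ranged from 6.92 to 14.7 CPM over all libraries, with an averaged GFP difference of 0.13 (SE 0.21) over 12 and 0.11 (SE 0.22) over 10 libraries. Klf2 differed by 0.08 (SE 0.17, 95% interval −0.28 to 0.45), and by 0.03 (SE 0.13) without KT13 and KT21. Satb1 was at 204 to 238 CPM in GFP+ NT and 175 to 207 CPM in GFP− NT libraries and its averaged difference was 0.29 (SE 0.14). That difference was 0.12 (SE 0.09) without KT13 and KT21, since KT21, at 342 CPM, was the highest library for Satb1.

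Among the receptors, Ccr7 followed Tcf7 in the libraries that stood apart. It was at 20.8, 41.7 and 50.01 CPM in GFP+ NT and at 41.3, 32.8 and 52.2 CPM in GFP− NT libraries. After anti-PD-L1 it was at 35.6, 12.4 and 40.1 CPM in GFP+ and at 28.5, 27.2 and 30.1 CPM in GFP−. KT21 and KT13 were the lowest of all 12 libraries for Ccr7, and with them the groups overlapped in both treatments. The averaged GFP difference of Ccr7 was −0.06 (SE 0.26, edgeR adjusted p = 0.971) over 12 libraries and 0.26 (SE 0.13, edgeR adjusted p = 0.487) over 10.

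Slamf6 was at 20.3, 31.7 and 32.5 CPM in GFP+ NT and at 23.3, 18.5 and 27.1 CPM in GFP− NT libraries. Here KT13 was the one GFP+ NT library within the GFP− range. After anti-PD-L1 Slamf6 was at 18.9, 32.9 and 23.1 CPM in GFP+, highest in KT21, and at 20.1, 23.5 and 18.5 CPM in GFP−. The averaged difference was 0.28 (SE 0.17) over 12 libraries, with an edgeR adjusted p of 0.708, and 0.25 (SE 0.14, edgeR adjusted p = 0.579) over 10. Cxcr5 was the scarcest member, with 6 to 55 counts in a library, all other members having at least 96. Its levels were 2.06 to 4.90 CPM in GFP+ and 0.453 to 2.99 CPM in GFP− libraries, which overlapped in both treatments, and its averaged difference of 0.89 had a wide 95% interval, −0.07 to 1.84. Over 10 libraries that difference was 0.66 (SE 0.51).

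Over the 9 members, 7 were higher in GFP+ than in GFP− cells in the average over treatments, with a median log2 difference of 0.28, while 50.6% of all tested genes were higher, with a median of 0.00384. No member was called at an adjusted p under 0.05 (0 of 9 with edgeR, DESeq2 and limma-voom), where 0.31% of all genes were called with edgeR, and 1 of 9, Lef1, had an edgeR unadjusted p under 0.05, as 8.18% of all genes did. With KT13 and KT21 left out all 9 were higher, with a median of 0.26, against 49.3% of all genes. None of the 9 was called then (0 of 9 with edgeR and DESeq2), 2 of 9, Tcf7 and Id3, had an edgeR unadjusted p under 0.05, and of all genes 1.08% were called and 10.3% had such an unadjusted p. The members are markers of overlapping cell states measured in the same libraries, so their directions are not independent of each other.

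Within NT tumors alone, Lef1 and Id3 were the members whose GFP+ libraries all lay above the GFP− libraries, 2 of 9 where 6.19% of all genes did so. No member was called (0 of 9 with edgeR, DESeq2 and limma-voom, 1 of 9 at an edgeR unadjusted p under 0.05), where of all genes 0.00706% were called and 6.05% had such an unadjusted p. In the fits without both KT13 and KT21 Slamf6 joined them, 3 of 9 against 12.3% of all genes. In those fits edgeR and DESeq2 called 0 of 9 (3 of 9 at an edgeR unadjusted p under 0.05), where edgeR called 0.339% of all genes and 9.24% had such an unadjusted p. The NT difference of Slamf6 was 0.29 (SE 0.25) over 12 libraries and 0.48 (SE 0.19, edgeR adjusted p = 0.433) over 10. After anti-PD-L1, 8 of 9 members were higher in GFP+ cells, as were 50.1% of all genes, and none was called (0 of 9 with edgeR, DESeq2 and limma-voom, and 0 of 9 at an edgeR unadjusted p under 0.05), where of all genes 0.0282% were called and 4.08% had such an unadjusted p. None of the 9 separated the groups in the higher direction, as 5.31% of all genes did. In the fit without both KT13 and KT21, Tcf7 and Ccr7 separated them, 2 of 9 against 11.4% of all genes, and 0.17% of all genes were called, with differences of 0.41 (SE 0.16, edgeR adjusted p = 0.774) and 0.40 (SE 0.18, edgeR adjusted p = 0.886). The NK list was also higher in GFP+ libraries, as given above. After anti-PD-L1 the CD4 and regulatory T cell list, to which Cd4 itself added little, was lower in GFP+ libraries. The part of these lists in the GFP differences of the members was not tested.

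**Figure D2:**
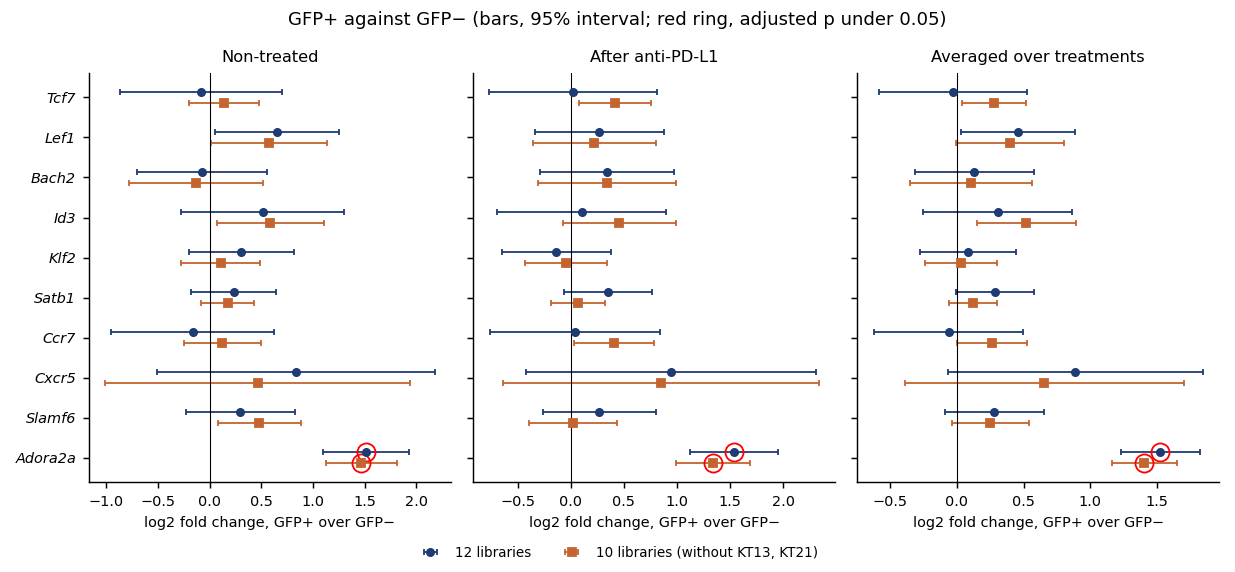
Log2 fold change of GFP+ over GFP− cells for the 9 markers and Adora2a, in NT libraries, after anti-PD-L1 and averaged over treatments; points are estimates of the edgeR fit on 12 libraries (circles) or on 10 without KT13 and KT21 (squares), bars are 95% intervals and a red ring marks an adjusted p under 0.05. Adora2a alone is ringed, and Tcf7 and Ccr7 move from −0.03 and −0.06 to 0.28 and 0.26 in the average once KT13 and KT21 are left out.

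The largest difference of any member was that of Klf2 after anti-PD-L1. It was at 599, 313 and 516 CPM in GFP+ NT libraries and at 251, 183 and 196 CPM in GFP+ libraries after anti-PD-L1, 476 ± 147 against 210 ± 36.2 CPM (SD, n = 3 each). In GFP− cells it was at 459, 278 and 418 CPM before and at 255, 213 and 225 CPM after treatment, 385 ± 94.8 against 231 ± 21.9 CPM (SD, n = 3 each). All 6 treated libraries were below all 6 NT libraries. As these are bulk libraries, fewer Klf2-high cells and less Klf2 RNA per cell cannot be told apart.

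The change of Klf2 was −1.18 in GFP+ cells (SE 0.24, 95% interval −1.70 to −0.66, edgeR adjusted p = 0.0984) and −0.74 in GFP− cells (SE 0.24, 95% interval −1.25 to −0.22, edgeR adjusted p = 1). Averaged over both GFP groups, a comparison added after the data had been seen, Klf2 fell by 0.96 on the log2 scale (SE 0.17, edgeR adjusted p = 0.0239), and without KT13 and KT21 it fell by 0.81 (SE 0.13, edgeR adjusted p = 0.000829), where 1.36% of all genes were called. In GFP+ cells the call depended on the libraries and the tool: the edgeR adjusted p was 0.0441 without KT13 and KT21, where 0.563% of all genes were called, and DESeq2 gave an adjusted p of 0.00233 on all 12 libraries and 0.188 on 10. With only the 6 GFP+ libraries fitted the edgeR adjusted p was 0.752. In GFP− cells the edgeR adjusted p was 0.0542 in the fit of 10 libraries, which called 0.373% of all genes, and 0.0298 when only the 6 GFP− libraries were fitted. There DESeq2 gave an adjusted p of 0.477 on 12 and 0.261 on 10 libraries, and limma-voom with sample weights gave 0.329. The averaged call was lost on leaving out any one of KT14, KT17, KT18, KT20, KT22, KT23 or KT24, where the edgeR adjusted p was 0.0541 to 0.0942.

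Id3 was the next most changed. In GFP+ cells its change was −1.004 (SE 0.37, 95% interval −1.80 to −0.21, edgeR adjusted p = 0.584) and in GFP− cells −0.59 (SE 0.37, edgeR adjusted p = 1). Its treated libraries lay below its NT libraries in each GFP group, as did those of 0.96% of all genes. Averaged over GFP the change was −0.80 (SE 0.26, edgeR adjusted p = 0.372), and −0.66 (SE 0.18, edgeR adjusted p = 0.0783) without KT13 and KT21.

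Tcf7 and Ccr7 were lower after anti-PD-L1 in GFP− cells, with no overlap between the 3 treated and the 3 NT libraries. The differences were −0.48 (SE 0.37) for Tcf7 and −0.56 (SE 0.37) for Ccr7 over 12 libraries, with an edgeR adjusted p of 1 for each. With KT13 and KT21 out of the fit the estimates were the same and the SE fell to 0.15 and 0.16, with edgeR adjusted p of 0.328 and 0.258. In GFP+ cells the differences were −0.37 for Tcf7 and −0.35 for Ccr7, and without KT13 and KT21 −0.20 and −0.28, with 95% intervals that included 0 in each case. Lef1 was lower in GFP+ cells (−0.65, SE 0.28, edgeR adjusted p = 0.709), where the groups did not overlap, and −0.27 (SE 0.28) in GFP− cells. Over 10 libraries these were −0.62 (SE 0.30) and −0.26 (SE 0.25).

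Bach2, Satb1, Cxcr5 and Slamf6 gave smaller or less certain differences. Bach2 was 0.17 in GFP+ and −0.23 in GFP− cells, Satb1 0.20 and 0.08, and Cxcr5 −0.17 and −0.28, all with 95% intervals that included 0. Over 10 libraries Bach2 was 0.24 and −0.23, Satb1 −0.02 and 0.08, and Cxcr5 0.10 and −0.28, again with intervals that included 0. Slamf6 was at −0.17 (SE 0.25) in GFP+ cells over 12 libraries but at −0.61 (SE 0.22, 95% interval −1.06 to −0.16, edgeR adjusted p = 0.354) without KT13 and KT21, as the NT library KT13 was low and the treated library KT21 was high for this gene.

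By count, 7 of 9 members were lower after anti-PD-L1 in GFP+ cells (median −0.35, against −0.0065 over all tested genes, of which 49.2% were higher) and 8 of 9 in GFP− cells (median −0.28, against −0.00529 and 49.1% higher). In GFP+ cells 3 of 9 (Klf2, Id3 and Lef1) did not overlap in the lower direction, where 5.67% of all genes did, and in GFP− cells 4 of 9 (Klf2, Id3, Tcf7 and Ccr7), where 6.26% did. No member was called within either GFP group by edgeR (0 of 9 each, with 3 and 1 of 9 at an edgeR unadjusted p under 0.05). Of all genes, edgeR called 0.0141% in GFP+ cells, with 6.74% at an unadjusted p under 0.05, and 0% in GFP− cells, with 3.44% at an unadjusted p under 0.05 and 33 genes called by DESeq2. DESeq2 and limma-voom with sample weights each called 1 of 9, Klf2, in GFP+ cells, among 93 and 52 genes of all, and 0 of 9 in GFP− cells. Averaged over GFP, edgeR called 1 of 9 (Klf2), where 0.395% of all genes were called, and 3 of 9 (Klf2, Id3 and Lef1) had an unadjusted p under 0.05, as 7.67% of all genes did. Without KT13 and KT21, edgeR called 1 of 9 (Klf2) in GFP+ and 0 of 9 in GFP−, against 0.563% and 0.373% of all genes. There 3 and 4 of 9 had an edgeR unadjusted p under 0.05, as 8.54% and 7.22% of all genes did. Averaged over GFP that fit called 1 of 9 (Klf2) and 6 of 9 had such a p, against 1.36% and 11.2% of all genes. The summed macrophage list was lower after anti-PD-L1 as well, 178 to 231 against 75.5 to 143 CPM in GFP+ and 126 to 188 against 68.1 to 107 CPM in GFP− libraries. The fibroblast and endothelial list went from 34.4 to 81.7 CPM in NT to 10.4 to 25.2 CPM in treated GFP+ libraries and from 19.8 to 54.3 CPM to 9.55 to 23.7 CPM in GFP−. The dendritic list went from 212 to 294 CPM to 117 to 215 CPM in GFP+ and from 165 to 222 CPM to 114 to 184 CPM in GFP−. The tumor epithelial list went from 210 to 302 CPM to 135 to 198 CPM in GFP+ and from 232 to 324 CPM to 201 to 305 CPM in GFP−. The part of these cells in the fall of Klf2 was not tested.

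**Figure D3:**
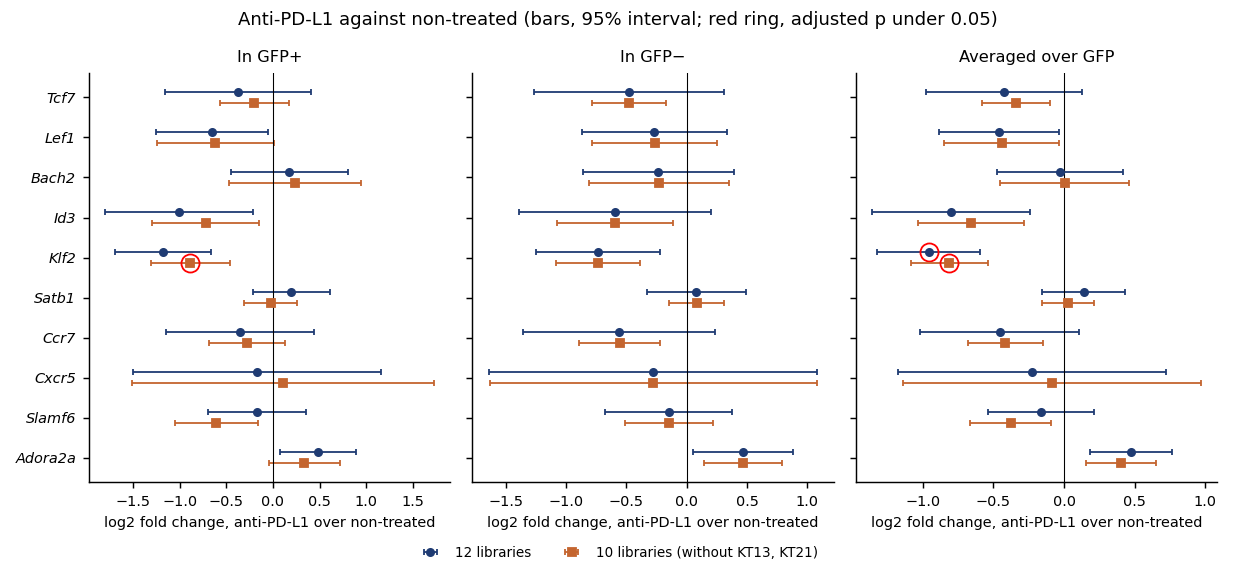
Log2 fold change of anti-PD-L1 over NT libraries for the 9 markers and Adora2a, in GFP+ cells, in GFP− cells and averaged over GFP; points are edgeR estimates on 12 libraries (circles) or on 10 without KT13 and KT21 (squares), bars are 95% intervals and a red ring marks an adjusted p under 0.05. Klf2 lies at −1.18 in GFP+, −0.74 in GFP− and −0.96 in the average, and Id3 at −1.004, −0.59 and −0.80.

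Whether anti-PD-L1 acted differently on the members in GFP+ and GFP− cells was tested with the interaction of GFP and treatment. No member was called (0 of 9 with edgeR, DESeq2 and limma-voom, and 0 of 9 at an edgeR unadjusted p under 0.05), nor was any other gene (0%, with 2.08% at an edgeR unadjusted p under 0.05). The intervals were wide: for Klf2 the change in GFP+ minus that in GFP− cells was −0.44 (95% interval −1.16 to 0.28), for Tcf7 0.10 (SE 0.52) and for Id3 −0.41 (−1.53 to 0.70). Without KT13 and KT21 they were −0.15 (−0.70 to 0.39), 0.28 (−0.21 to 0.76) and −0.13 (−0.88 to 0.62). All of these intervals included 0, and a p that misses the threshold does not show that the treatment acted alike in GFP+ and GFP− cells.

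A further 26 genes of naive, memory and stem-like cells did not share one direction by GFP. In the average over treatments 15 of 26 were higher in GFP+ cells, with a median of 0.09, where 50.6% of all genes were higher. Of the 26, 1 was called, where 0.31% of all genes were. This was Il7r, the receptor chain through which memory cells receive the survival signal of IL-7, and it was lower in GFP+ cells. Il7r was at 47.6 to 50.3 CPM in GFP+ NT against 70.6 to 75.6 CPM in GFP− NT libraries, and at 60.4 to 69.8 against 94.4 to 106 CPM after anti-PD-L1. Neither treatment showed an overlap, KT13 and KT21 lay with their group, and the averaged difference was −0.60 (SE 0.09, edgeR adjusted p = 0.0131).

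In the 10-library fit, without KT13 and KT21, 7 of the 26 genes were called, 3 higher and 4 lower in GFP+ cells, where 1.08% of all genes were called. Nsg2, a membrane protein gene high in naive and early memory T cells, was higher by 0.60 (SE 0.11, edgeR adjusted p = 0.00362) and Txk, a Tec family kinase of resting T cells, by 0.57 (SE 0.11, edgeR adjusted p = 0.00528). The chemokine Xcl1, which attracts cross-presenting dendritic cells and is made by stem-like CD8+ T cells, was higher by 0.46 (SE 0.11, edgeR adjusted p = 0.0324). KT13 and KT21, the GFP+ libraries left out of this fit, had the lowest Xcl1. Over all 12 libraries Nsg2, Txk and Xcl1 were not called. Of these, Nsg2 was also without overlap in both treatments over all 12 libraries, at 79.1 to 107 against 57.9 to 60.0 CPM in NT and at 50.7 to 66.8 against 37.9 to 45.6 CPM after anti-PD-L1. Lower beside Il7r were Dapl1 (−0.69, SE 0.13, edgeR adjusted p = 0.00645), the IL-6 receptor chain Il6ra (−1.41, SE 0.29, edgeR adjusted p = 0.0118) and Igfbp4 (−1.48, SE 0.29, edgeR adjusted p = 0.00877). Dapl1 was at 17.4 to 41.6 CPM in GFP+ and at 45.5 to 81.3 CPM in GFP− libraries. Genes that share a place in naive and memory signatures thus lay on both sides of 0.

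**Figure D4:**
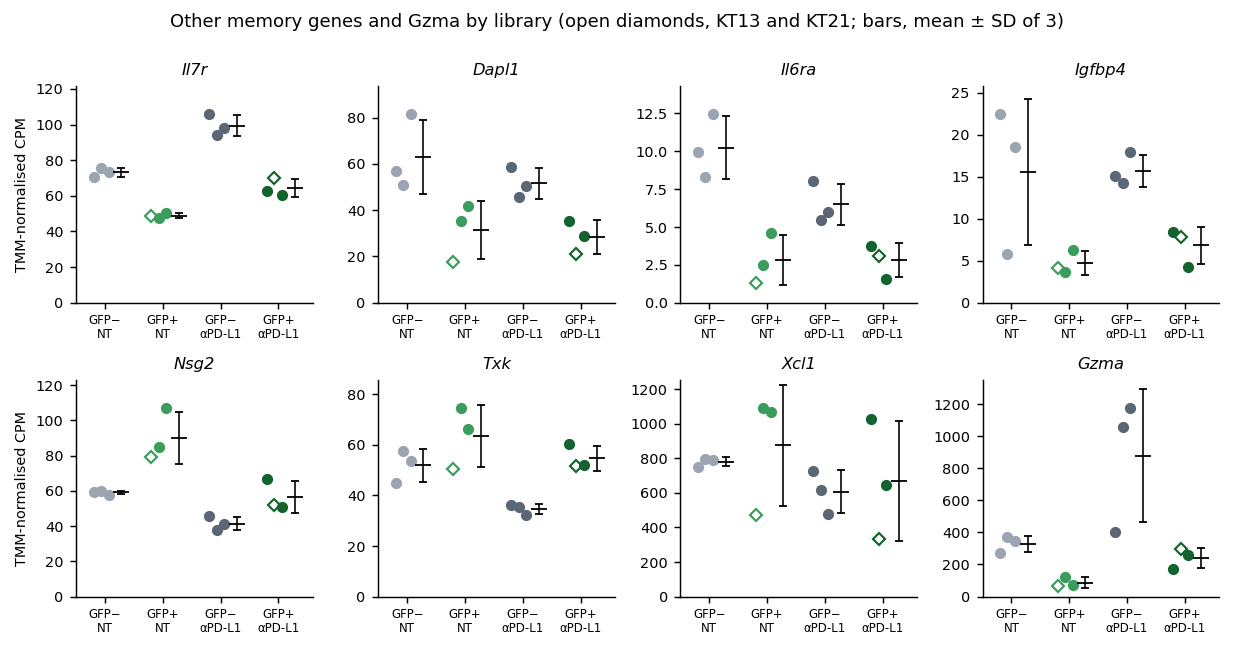
Level of 7 further memory genes and of Gzma in each library, as TMM-normalised CPM on linear axes from 0; filled circles are libraries, open diamonds are KT13 and KT21, and bars are the mean ± SD of 3 libraries. Within each treatment Il7r is lower in every GFP+ than in every GFP− library and Nsg2 is higher, while Xcl1 is lowest in KT13 and KT21 (473 and 335 CPM).

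With anti-PD-L1, averaged over GFP, 16 of the 26 were lower (median −0.07), where 48.8% of all genes were higher. Of these 26, 1 was called, where 0.395% of all genes were. Nsg2 fell by 0.59 (SE 0.12, edgeR adjusted p = 0.0455). In the 10-library fit 5 of 26 were called, where 1.36% of all genes were: Nsg2, Txk and Tnfsf8 (CD30 ligand) were lower, by −0.61, −0.45 and −0.71, and Il7r and the costimulatory receptor Icos were higher, by 0.39 and 0.50 (edgeR adjusted p from 0.0028 to 0.0474).

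The 25 genes of effector and terminally differentiated cells were mostly higher under treatment, where most members were lower. This list was chosen with earlier results of these data known. Averaged over GFP, 23 of 25 were higher after anti-PD-L1 (median 0.53), where 48.8% of all genes were. In that average 7 were called higher, as were 0.0917% of all genes. They were Prf1 and Gzma (cytotoxic), the chemokines Ccl3 and Ccl5, the inhibitory receptor Havcr2 (TIM-3), the ectonucleotidase Entpd1 (CD39) and the repressor Prdm1. Prf1 rose by 1.47 (SE 0.15, edgeR adjusted p = 0.0021) and Havcr2 by 0.90 (SE 0.14, edgeR adjusted p = 0.0086). In the 10-library fit 14 of 25 were called higher, as were 0.665% of all genes. By GFP, 6 of 25 were higher in NT (median −0.29), where 50.2% of all genes were, and 0 of 25 were called. There 10 of 25 were lower without overlap and 1 of 25 higher, against 6.63% and 6.19% of all genes. After anti-PD-L1, 15 of 25 were higher (median 0.04), as were 50.1% of all genes. In the average 9 of 25 were higher (median −0.11), where 50.6% of all genes were, and 1 was called, where 0.31% of all genes were. This was Gzma (granzyme A), lower in GFP+ cells by −1.88 (SE 0.25, edgeR adjusted p = 0.00511). It was at 66.6 to 125 against 269 to 369 CPM in NT and at 170 to 294 against 404 to 1174 CPM after anti-PD-L1. Id2, linked to effector fate as Id3 is to memory, was also lower in GFP+ cells without KT13 and KT21 (−0.54, SE 0.13, edgeR adjusted p = 0.0307).

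**Figure D5:**
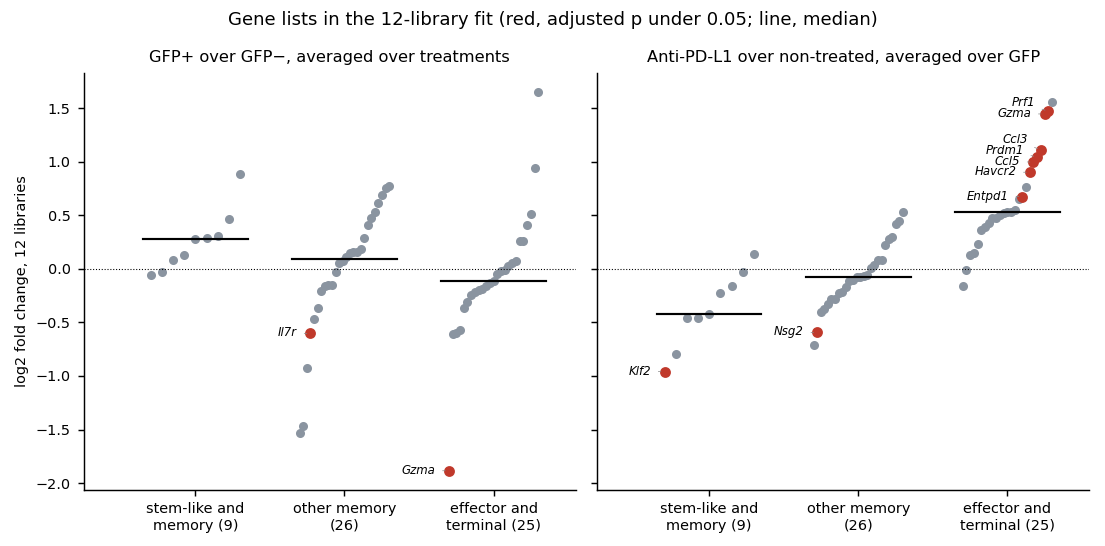
Log2 fold change of each gene of 3 lists in the edgeR fit on 12 libraries, ordered within a list; red points have an adjusted p under 0.05 and black lines are medians. By GFP (left) the medians are 0.28, 0.09 and −0.11, and by anti-PD-L1 (right) −0.43 for the 9 members, with Klf2 called, and 0.53 for the effector list, with 7 called.

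The genes whose level was most like that of Tcf7 over the 12 libraries were Zfp36l1 (Spearman 0.944), Gm7079 (0.902), Osbp (0.895), and Xcl1, Rpl31-ps7 and Zfp937 (0.881 each). They were picked as the highest of all tested genes, so no test is given. Over 10 libraries the values were 0.903 for Zfp36l1 and 0.806 for Xcl1. Gm7079 and Rpl31-ps7 are pseudogene models, whose reads can be shared with a parent copy. Zfp36l1 encodes an RNA-binding protein that promotes decay of AU-rich transcripts.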

How the data were processed

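CD8+ GFP+ and GFP− tumor-infiltrating lymphocytes were profiled by QuantSeq 3′ sequencing (75 bp, single end). The authors trimmed reads with Cutadapt, aligned them to mm10 with HISAT2 and counted them with featureCounts, and they deposited raw counts of reads per Ensembl gene for 12 libraries. The sources differ on the Cutadapt and Subread versions, and the annotation release, strand setting and treatment of multimapping reads are not given in the sources used here. Symbols came from gene tables and were matched for 52403 of 52636 identifiers.

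Counts were fitted over all 12 libraries with 1 mean per group in edgeR 4.0.16 (R 4.3.3): filterByExpr, TMM factors, quasi-likelihood F tests, Benjamini-Hochberg adjustment over all tested genes and a threshold of 0.05. Log2 fold changes have SE and 95% intervals from that fit. Levels are CPM scaled by TMM factors. The fit was repeated without KT13 and KT21 (14747 genes tested), without each library in turn, with other scaling and filters, on the groups compared alone, and with DESeq2 1.42.0 and limma 3.58.1 (voom with sample quality weights). Scripts were tested on simulated data.

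Groups came from the labels, which give library codes and no batch, date or pairing, so samples were not paired. Each library pools 3 mice, so p-values measure the spread between pools. The labels do not say whether GFP+ and GFP− libraries came from the same mice. Depth was 11292699 to 19023900 counts per library, and the spread between libraries sets the SE. Named were the 9 members, Adora2a, genes of 2 further lists (26 and 25 genes) with an adjusted p under 0.05 over 12 or 10 libraries, and the 5 genes most correlated with Tcf7, of which the last tied with a sixth. Members, lists and markers were chosen with earlier results of these data known.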

Additional observations from a re-analysis of the deposited data

How the results depend on the processing

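Of 470 alternative values for member log2 fold changes, 440 kept direction and side of the threshold, 8 newly passed it and 22 changed sign. The sign changes were in members with small differences. Without KT13 and KT21, with voom weights (0.348 for KT13 and 0.229 for KT21, others 0.718 to 1.89) and with DESeq2 without both, an alternative chosen after seeing the data, the GFP difference in NT became 0.138, 0.0784 and 0.141 for Tcf7 and 0.124, 0.0357 and 0.125 for Ccr7, and the average 0.276, 0.163 and 0.275 for Tcf7 and 0.263, 0.173 and 0.262 for Ccr7. The anti-PD-L1 difference in GFP+ became 0.105, 0.108 and 0.0925 for Cxcr5 and −0.0246, −0.00193 and −0.0367 for Satb1, and the Satb1 interaction −0.108, −0.0857 and −0.115. The averaged treatment difference of Bach2 was 0.0034 without KT13 and KT21. The cause was not tested.

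Counts of called genes depended on the setting. In the order DESeq2, no filter beyond 1 count, without KT13 and KT21, voom weights, and DESeq2 without both, they were 53, 78, 50, 12 and 131 for GFP in NT (1 in edgeR), 47, 49, 25, 20 and 64 for GFP after anti-PD-L1 (4 in edgeR, 0 with only the 2 groups), and 158, 204, 159, 126 and 256 for the GFP average (44 in edgeR). For anti-PD-L1 they were 93, 123, 83, 52 and 142 in GFP+ (2 in edgeR, 0 with only the 2 groups), 33, 60, 55, 34 and 91 in GFP− (0 in edgeR, 51 with only the 2 groups), and 181, 223, 201, 132 and 301 in the average (56 in edgeR). The interaction gave 10 with no filter. Members called under anti-PD-L1 were 1, 2, 1 and 1 in GFP+ under the first 4 of these settings, 1 in GFP− with only the 2 groups, and 2 in the average with no filter and with DESeq2 without both.

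Leaving out 1 library gave 0 to 6 called genes for GFP in NT, 0 to 7 after anti-PD-L1 and 13 to 50 in the average, and for anti-PD-L1 0 to 34 in GFP+, 0 to 28 in GFP− and 27 to 90 in the average, with 0 to 1 members. The GFP difference in NT ranged from −0.339 to 0.139 for Tcf7, −0.428 to 0.123 for Ccr7 and −0.31 to 0.198 for Bach2. After anti-PD-L1 it ranged from −0.376 to 0.413 for Tcf7, −0.0142 to 0.535 for Lef1, −0.231 to 0.403 for Ccr7 and −0.422 to 0.453 for Id3, and in the average from −0.23 to 0.165 for Tcf7, −0.194 to 0.12 for Ccr7 and −0.0155 to 0.199 for Klf2. The anti-PD-L1 difference in GFP+ ranged from −0.769 to 0.0216 for Tcf7, −0.64 to 0.0107 for Ccr7, −0.0382 to 0.37 for Bach2, −0.427 to 0.199 for Cxcr5 and −0.0795 to 0.334 for Satb1, and in GFP− from −0.513 to 0.036 for Lef1, −0.469 to 0.0653 for Bach2 and −1.2 to 0.156 for Cxcr5. In the average it ranged from −0.146 to 0.141 for Bach2. The interaction ranged from −0.292 to 0.497 for Tcf7, −0.275 to 0.141 for Slamf6, −0.0837 to 0.566 for Ccr7, −0.318 to 1.04 for Cxcr5 and −0.163 to 0.252 for Satb1. Klf2 kept its sign under anti-PD-L1 in every one of these fits, at −1.07 to −0.86 in the average. Cxcr5 had the fewest counts of the members, 6 to 55 per library, with 3 pools per group. The part of depth in its spread was not tested.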
